A study of Rattus norvegicus with 8 samples.

Results

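Natural killer (NK) cells were examined in single-cell RNA sequencing of the rat spinal cord after contusion. A cell counted as an NK cell when it held no unique molecular identifier (UMI, a tag that marks 1 RNA molecule) of the T cell receptor subunits Cd3d, Cd3e and Cd3g, at least 2 UMIs of Nkg7, at least 1 UMI of Klrd1 and at most 5 UMIs of the complement genes C1qa, C1qb and C1qc together. Only cells with at least 500 UMIs and at most 10% of their UMIs on mitochondrial genes were kept. A total of 352 of 63769 kept cells met these limits (0.552%). The members were therefore chosen by their counts of Nkg7, Klrd1, Cd3 and C1q genes, and values of those genes are given as a description without a test.

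NK cells are innate lymphocytes that kill target cells without a rearranged antigen receptor. They read balances of activating and inhibitory receptors, many of the lectin-like Klr and Ly49 families, and pass activating signals through adaptor proteins such as Tyrobp and Fcer1g. Killing is done by granules in which perforin (Prf1) opens the target membrane and granzymes cleave proteins inside it, and NK cells also release chemokines such as Ccl5, Ccl4 and Xcl1. Few lymphocytes reside in the healthy spinal cord, and lymphocytes enter it from the blood after trauma.

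All rats were female Wistar animals, labelled as 8-week, and cord cells were taken 7 days after surgery. Sham animals had laminectomy alone. Mild, moderate and severe contusions were made with a 10 g weight dropped on the exposed cord at vertebra T9 from 12.5, 25 and 50 mm. A 10 mm segment of cord was dissociated and loaded on droplet-based 10x Genomics 3′ libraries. Each group had 2 libraries, named here by group and replicate number (sham 1, sham 2 and so on), 8 in all. The study speaks of 8 cords, and the labels do not tie a library to an animal. The p-values measure the spread between libraries.

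The libraries differed strongly in depth and make-up, and the NK cells were spread unevenly over them. Sham 1 held 258 of the 352 NK cells (73.3%), and the 6 injured libraries held 93 together. Kept UMIs per library ranged from 30099715 in sham 2 to 129504698 in severe 2. The median kept cell had 2970.5 UMIs in sham 1 and between 7632.5 and 12039 in the other libraries. In sham 1, 7204 kept cells (67.1%) reached at least 20 UMIs of the neutrophil genes S100a8 and S100a9 together, against 3.42% to 13.3% in the injured libraries. In sham 2, 2282 kept cells (84.5%) passed a macrophage limit of at least 20 C1q UMIs with Cd3 at 0. The sham condition and the make-up of sham 1 cannot be told apart in any comparison that uses NK cells of the sham group, since sham 2 held 1 NK cell.

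NK cells held 1518835 UMIs together. The median NK cell had 3239 UMIs (range 689 to 53907), with a median of 8 Nkg7 and 5 Klrd1 UMIs. By library the median was 3180 UMIs in sham 1, 2106 in mild 1, 1741 in moderate 1, 3015 in moderate 2, 4942 in severe 1 and 6157.5 in severe 2. The 2 severe libraries thus held the deepest NK cells and moderate 1 the shallowest of the 6 libraries with at least 8 NK cells. The median of Klrd1 was 6 UMIs in sham 1, 1 in mild 1, 2 in moderate 1 and moderate 2, 3 in severe 1 and 2.5 in severe 2. NK cells of these injured libraries thus lay nearer the Klrd1 limit than those of sham 1. Barcodes were shared between libraries in numbers of 5 to 40 per pair over the 28 pairs, and no barcode named an NK cell in both libraries of a pair, although 11 barcodes of NK cells also occurred in another library.

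Prf1, the third gene given as a mark of these cells, was not used by the limits and was high. Its level was 857 counts per 1e6 UMIs (CPM) over all 352 cells. Just inside the limits, 18 cells with exactly 2 Nkg7 UMIs had 660 CPM of Prf1, 50 cells with exactly 1 Klrd1 UMI had 812 CPM and 112 cells with 1 to 5 C1q UMIs had 831 CPM. Just outside, 12 cells with 1 Nkg7 UMI had 1088 CPM, 104 cells with Nkg7 at 0 had 4.93 CPM, 106 cells with Klrd1 at 0 had 177 CPM, 8 cells with a Cd3 sum of 1 had 394 CPM and 10 cells with more than 5 C1q UMIs had 106 CPM. Sham 1 gave 14 of the 18 cells with exactly 2 Nkg7 UMIs and 85 of the 112 with 1 to 5 C1q UMIs. It also gave 11 of the 12 with 1 Nkg7 UMI and 94 of the 104 with Nkg7 at 0. These pooled values thus mostly describe sham 1. Of the 50 cells with exactly 1 Klrd1 UMI, 15 were of sham 1, as were 5 of the 8 and 4 of the 10. Another 7 cells, all of sham 1, failed the mitochondrial limit alone. The cells with Klrd1 at 0 were fewer than the NK cells in sham 1 (19 beside 258) and more in mild 1 (35 beside 15). Their Prf1 level differed by library. It was 205 CPM in sham 1, 336 in mild 1, 524 in moderate 1, 571 in moderate 2, 17.9 in severe 1 and 50.9 in severe 2. NK cells of moderate 1 and moderate 2 had 990 and 863 CPM. The Klrd1 limit thus left out cells with much Prf1 there, and the NK shares by library depend on it.

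The level of Prf1 in NK cells was 929 CPM in sham 1, 762 in mild 1, 990 in moderate 1, 532 in severe 1 and 622 in severe 2 (mean 767 ± 195, SD, n = 5 libraries with at least 10 NK cells). To compare cells of unequal depth, each cell was thinned at random to 1000 UMIs. A Prf1 UMI was then found in 55.3% of 342 NK cells, 251 of them of sham 1 (82.4% before thinning), with 52.4% ± 10.0 (SD) over the 5 libraries. The share was 0.00571% of 17500 macrophages and 0.0124% of 8091 oligodendrocyte-lineage cells, which should lack the gene. Before thinning, the median cell of a library had 9556 to 19270 UMIs in macrophages and 9086.5 to 21827 in oligodendrocyte-lineage cells, deeper than NK cells. The shares of these 2 control classes were pooled over libraries and came from cells thinned from a greater depth. They therefore give no level of free RNA for the NK cells of a library. The part of free RNA in the Prf1 of NK cells was not tested.

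Other NK genes not used by the limits bore out the label in part. After thinning, Ccl5 was found in 98.2% of NK cells, the granzyme Gzmm in 86.5% and the receptor Klrb1a in 63.2%, against at most 0.272% of macrophages or oligodendrocyte-lineage cells for each. Ncr1 (NKp46), a receptor that marks NK cells across mammals, was found in 9.65% of NK cells after thinning and in 30.1% before. Over all kept cells, 6259 of the 8114 Klrb1a UMIs and 281 of the 424 Ncr1 UMIs lay outside NK and T cells. For Gzmm it was 1394 of 7089 UMIs and for Ccl5 6820 of 58163. Cd5, a T cell surface protein, was at 0 in 4 of the 5 libraries. Gzmb had no UMI in any kept cell of the series, so its absence here says nothing about NK cells. Of 18 measured genes of a T cell list, Cd4, Themis, Foxp3, Cd40lg and Pdcd1 were at 0 in the NK cells of the 5 libraries, and Cd8a or Lck was the most abundant. The list summed to 716 CPM in sham 1, 1190 in mild 1, 840 in moderate 1, 1031 in severe 1 and 1216 in severe 2. In T cells with Nkg7 at 0, a class described below, it summed to 1213, 1360, 1427, 1251 and 1667 CPM in the same order. The T cell receptor constant genes of this list were not matched by symbol and were not analysed here.

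The share of NK cells among kept cells was highest by far in sham 1 and, among the injured libraries, highest after severe contusion. It was 2.40% (258 of 10736, Wilson 95% interval 2.13 to 2.71) in sham 1 and 0.0370% (1 of 2702, 0.00653 to 0.209) in sham 2. It was 0.162% (15 of 9285, 0.0979 to 0.266) in mild 1 and 0.0111% (1 of 9020, 0.00196 to 0.0628) in mild 2. Of the 15 cells of mild 1, 12 held exactly 1 Klrd1 UMI, and with at least 2 required its share was 0.0323% (3 cells). It was 0.164% (19 of 11559, 0.105 to 0.257) in moderate 1 and 0.111% (8 of 7234, 0.0560 to 0.218) in moderate 2. At these limits the severe libraries were above all 4 mild and moderate libraries, with 0.567% (24 of 4236, 0.381 to 0.842) in severe 1 and 0.289% (26 of 8997, 0.197 to 0.423) in severe 2. Cells that failed the Klrd1 limit alone numbered 35 in mild 1, 3 in mild 2, 15 in moderate 1 and 5 in moderate 2. There were 19 in severe 1 and 9 in severe 2, so the order of mild 1 and severe 2 depends on that limit. The group means were 1.22% ± 1.67 in sham, 0.0863% ± 0.106 in mild, 0.137% ± 0.0380 in moderate and 0.428% ± 0.196 in severe (SD, n = 2 libraries each). The intervals cover counting error only, and the 2 sham libraries differed by more than the means of any 2 groups.

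**Figure D1:**
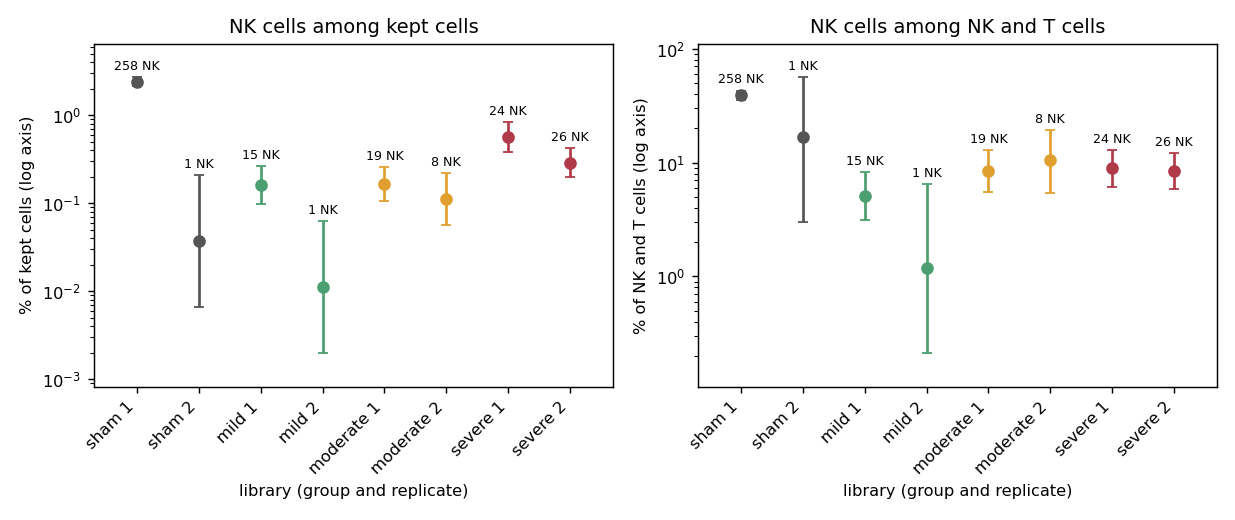
Share of NK cells among kept cells (left) and among NK and T cells together (right) in each of the 8 libraries, in percent on a log axis. Points are libraries, bars are Wilson 95% intervals and the numbers give the NK cells, from 1 in sham 2 and mild 2 to 258 in sham 1.

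Set against the drop height over all 8 libraries, with sham at 0, the share had a Spearman rho of 0.29 (exact permutation p = 0.513, two-sided; 0.984 after Benjamini-Hochberg adjustment over the 2 shares tested) and a Pearson r of −0.27 (exact permutation p = 0.548; 0.548 adjusted). The relation over all libraries was not detectable and rested on sham 1. Without sham 1 the rho was 0.84 (exact permutation p = 0.0222, n = 7) and r was 0.84 (p = 0.0111). In the 6 injured libraries alone the rho was 0.84 (exact permutation p = 0.0667) and r was 0.84 (p = 0.0222). When the 2 libraries farthest from the median height, both of the severe group, were left out, the rho was 0.00 and r was −0.51 over 6 libraries (exact permutation p = 1.0 and 0.578). No sequencing batch was named in the sources used here, so no within-batch value could be given.

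Among lymphocytes the sham library stood apart as well. Cells with at least 2 Cd3 UMIs and at most 5 C1q UMIs were taken as T cells (1572 cells). NK cells made up 39.1% (Wilson 35.4 to 42.9) of the NK and T cells in sham 1 and 16.7% (1 of 6, 3.01 to 56.4) in sham 2. They made up 5.08% in mild 1, 1.19% in mild 2, 8.44% in moderate 1, 10.5% in moderate 2, 8.92% in severe 1 and 8.41% in severe 2. The 4 moderate and severe libraries lay between 8.41% and 10.5%, with overlapping intervals. Over the 7 libraries with at least 10 NK and T cells, this share had a rho of −0.02 with drop height (exact permutation p = 0.984) and an r of −0.44 (p = 0.406). The sign of the rho turned to 0.60 without sham 1 (exact permutation p = 0.267).

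NK cells were few but held a large part of the RNA of several granule genes in sham 1, and of Gzma in all 5 libraries with at least 10 NK cells. In sham 1 NK cells were 2.40% of the kept cells and held 88.1% of the Gzma UMIs of the library, 88.0% of Gzmk, 85.1% of Ccl5, 81.7% of Gzmm and 80.5% of Prf1. In mild 1 the parts were 52.6% of Gzma, 13.0% of Gzmk, 10.1% of Ccl5, 15.0% of Gzmm and 19.9% of Prf1. All 10 Gzma UMIs behind the part in mild 1 came from 1 NK cell, and 44 of 77 in severe 2 from another. In severe 1 and severe 2 the parts were 92.5% and 80.2% of Gzma and 48.6% and 44.5% of Prf1. Gzma had the largest NK part of the 4 granule genes Gzma, Gzmk, Gzmm and Prf1 in each of these libraries. For Gzmk, Ccl5, Gzmm and Prf1 the part was highest in sham 1 and lowest in mild 1 among the 5 libraries. For the receptor Klrb1a it ran from 3.88% in mild 1 to 33.1% in sham 1.

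**Figure D2:**
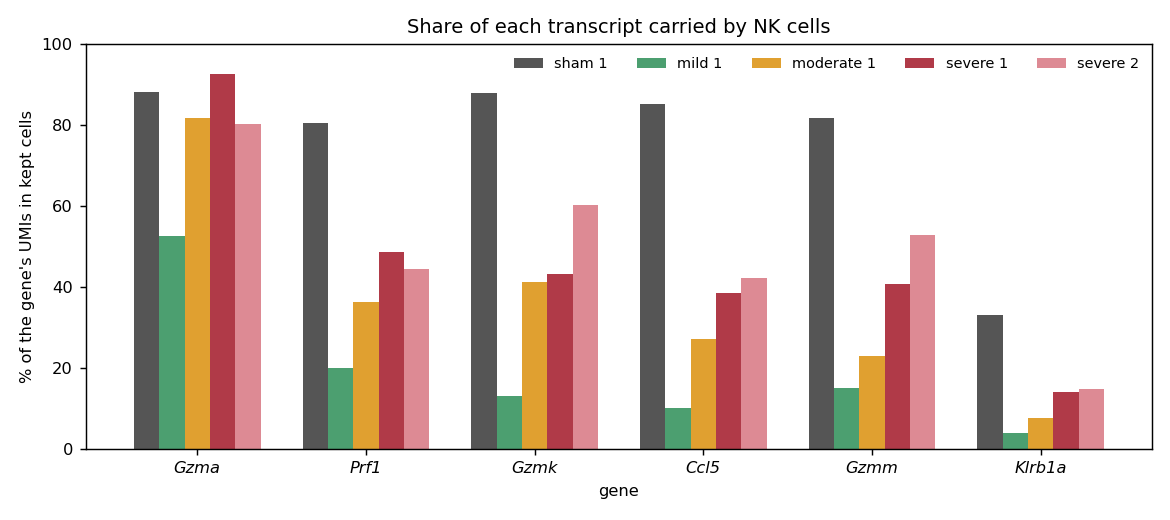
Percent of the UMIs of 6 genes over all kept cells of a library that lay in its NK cells; each bar is 1 of the 5 libraries with at least 10 NK cells. For Gzma the NK part ran from 52.6% in mild 1, where 1 cell held all 10 NK UMIs, to 92.5% in severe 1.

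A pair of T cell classes were used to show what sets NK cells apart: Nkg7+ T cells with at least 2 Nkg7 UMIs (237 cells), the most like class, and T cells with Nkg7 at 0 (1263 cells). UMIs were summed per library and class over the 5 libraries with at least 10 cells of each, and tested with edgeR's quasi-likelihood test with the library as a block. Against Nkg7+ T cells, 1766 genes were tested and 58 had an adjusted p under 0.05 (3.28%), 33 higher in NK cells (1.87%) and 25 lower (1.42%). Genes used by the limits are left out of these and all later counts. A gene near 0 in one class passed the filter on low counts through the other, so counts and medians over the tested members of a list are a description and lend a direction no support.

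Genes called higher in NK cells than in Nkg7+ T cells included Prf1, 4 granzymes, 3 receptors and 2 adaptors, and those called lower included Cd8a, Cd8b and Lat. Of 9 tested genes of a cytotoxic granule list 5 were higher (Prf1, Gzma, Gzmk, Gzmm and Gzmbl2) and none lower, with a median log2 fold change of 1.08 beside 0.01 over all genes tested. The remaining 4 did not pass the test, among them Ctsw (−0.71, adjusted p = 0.53). Of 4 tested NK receptors, out of 26 measured, 3 were higher (Klrb1a, Klri1 and Klre1; median 2.14). Of 4 adaptors, Tyrobp and Fcer1g were higher. Of 6 tested T cell genes, Cd8a, Cd8b and Lat were lower (median −1.24).

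Prf1 was higher in NK cells in all 5 libraries. Its level in Nkg7+ T cells was 101 CPM in sham 1, 157 in mild 1, 128 in moderate 1, 103 in severe 1 and 182 in severe 2, and its log2 fold change was 2.41 ± 0.24 (SE, adjusted p = 0.000163). All 5 NK values, from 532 to 990 CPM, lay above all 5 values of the T cells. Here and below, classes without overlap are named for genes already called. The share of all tested genes without overlap is not given, so each such statement is a description. Gzma, a granzyme with trypsin-like specificity, was at 1326, 186, 1055, 785 and 424 CPM in NK cells of sham 1, mild 1, moderate 1, severe 1 and severe 2, and at 117, 6.14, 85.1, 25.8 and 53.3 CPM in Nkg7+ T cells (log2 fold change 3.79 ± 0.32, adjusted p = 6.02e-05). The classes did not overlap for Gzma either, but it varied between NK libraries, and all 10 of its UMIs in mild 1 came from 1 cell and 44 of 77 in severe 2 from another.

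Gzmk and Gzmm were expressed by both classes at high levels. Gzmk was at 2983, 1320, 1593, 2674 and 2549 CPM in NK cells and at 787, 949, 510.5, 1082 and 1057 CPM in Nkg7+ T cells, in the same order of libraries (log2 fold change 1.27 ± 0.20, adjusted p = 0.00372). Gzmm, a granzyme typical of NK cells, was at 2037, 2417, 2906, 3547 and 4514 CPM in NK cells and at 1047, 1038, 1659, 1330 and 1972 CPM in the T cells (1.08 ± 0.14, adjusted p = 0.00112). In both genes every NK library was above every T cell library, and NK cells of the 2 severe libraries had the most Gzmm. Gzmbl2, a granzyme B-like gene that may share reads with its paralogs, was higher by 2.73 ± 0.37 (adjusted p = 0.0014).

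The start regions of Prf1, Gzma, Gzmk and Gzmm are shown, 4 of the 5 granule genes called higher in NK cells than in both T cell classes (the fifth is Gzmbl2). The 250 bases before the start of each gene were taken from RefSeq (rat build GRCr8), 5′ to 3′ on the strand of the gene; the counts themselves were made on Rnor_6.0. Capitals mark matches to the core letters of T-box factors such as Tbx21 (GGTGTGA, or TCACACC on the other strand) and of Runx factors (TGTGGT, or ACCACA on the other strand).
Prf1, chr20:29788790-29789039, plus strand: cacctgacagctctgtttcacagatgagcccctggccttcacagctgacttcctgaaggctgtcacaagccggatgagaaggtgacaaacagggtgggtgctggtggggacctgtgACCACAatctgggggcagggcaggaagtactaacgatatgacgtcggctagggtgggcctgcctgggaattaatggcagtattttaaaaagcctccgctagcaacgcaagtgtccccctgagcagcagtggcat
Gzma, chr2:46485697-46485946, minus strand: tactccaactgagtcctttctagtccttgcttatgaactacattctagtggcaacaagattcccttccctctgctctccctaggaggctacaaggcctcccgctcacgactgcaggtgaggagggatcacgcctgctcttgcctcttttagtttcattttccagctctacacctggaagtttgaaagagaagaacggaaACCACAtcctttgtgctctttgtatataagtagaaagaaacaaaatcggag
Gzmk, chr2:46582016-46582265, minus strand: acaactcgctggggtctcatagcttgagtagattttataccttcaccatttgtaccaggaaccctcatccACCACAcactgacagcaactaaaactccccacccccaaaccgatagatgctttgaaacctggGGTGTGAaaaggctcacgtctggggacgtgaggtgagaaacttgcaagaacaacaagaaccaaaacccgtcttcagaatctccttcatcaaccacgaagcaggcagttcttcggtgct
Gzmm, chr7:10667257-10667506, minus strand: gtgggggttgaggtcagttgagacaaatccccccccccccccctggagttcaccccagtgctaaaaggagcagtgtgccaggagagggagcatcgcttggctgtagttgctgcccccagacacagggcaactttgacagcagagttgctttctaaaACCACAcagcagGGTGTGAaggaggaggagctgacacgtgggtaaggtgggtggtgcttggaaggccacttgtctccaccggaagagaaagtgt
The T-box letters were found in Gzmm, with the first base at −82 from the start, and in Gzmk at −118, and in 3.22% of 33469 rat promoters of the same length. The Runx letters were found in all 4, at −134 in Prf1, −51 in Gzma, −180 in Gzmk and −94 in Gzmm, and in 14.5% of promoters. A match describes the letters only.

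The receptors Klrb1a, Klri1 and Klre1 and the adaptors Fcer1g and Tyrobp were higher in NK cells. Klrb1a, of the NKR-P1 family, was at 835, 874, 1163, 912 and 1250 CPM in NK cells and at 83.8, 150, 170, 99.8 and 240 CPM in Nkg7+ T cells (log2 fold change 2.76 ± 0.21, adjusted p = 5.28e-05). Klri1, which forms receptors with Klre1, was at 389, 279, 237, 301 and 418 CPM against 25.1, 15.4, 0, 22.5 and 4.44 CPM (4.37 ± 0.36, adjusted p = 6.02e-05). Fcer1g, an adaptor that also serves Fc receptors, was at 2027, 2343, 1313, 1563 and 2009 CPM against 318, 795, 269, 312 and 386 CPM (2.18 ± 0.19). For each of these 3 genes every NK value lay above every T cell value. They were picked from genes already called, and the share of all tested genes without overlap is not given, so this is a description. The log2 fold change was 1.52 ± 0.23 for Klre1 (adjusted p = 0.00262) and 2.10 ± 0.22 for Tyrobp, and the interleukin-2 and -15 receptor chain Il2rb was higher too (1.55 ± 0.21, adjusted p = 0.00131).

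Klrk1 (NKG2D) and Cd247, a signalling chain of both T cell and NK receptors, had overlapping levels in the classes. Klrk1 was at 150, 93.0, 129, 119 and 77.1 CPM in NK cells and at 159, 95.2, 142, 83.7 and 97.7 CPM in Nkg7+ T cells. Cd247 was at 169.9, 223, 64.6, 159 and 198 CPM in NK cells and at 117, 243, 198.5, 164 and 218 CPM in Nkg7+ T cells, so that it was higher in NK cells of sham 1 and lower in the other 4 libraries. The receptor Ncr1 was at 108, 55.8, 86.1, 31.7 and 44.0 CPM in NK cells and had UMIs in Nkg7+ T cells of sham 1 alone among the 5 libraries (16.8 CPM). It was too low to be tested in that comparison.

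**Figure D3:**
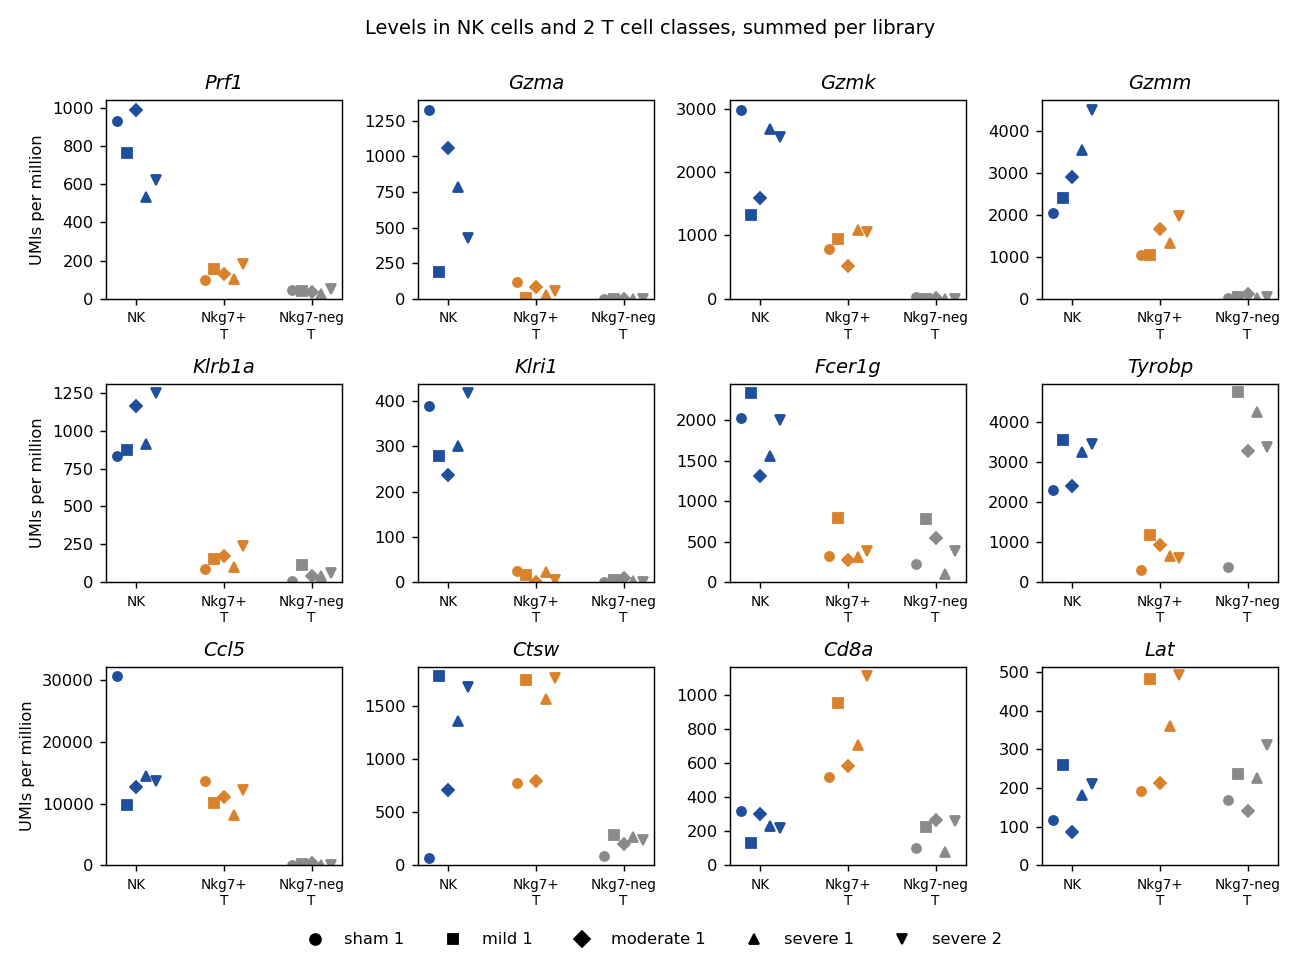
Level of 12 genes in NK cells, Nkg7+ T cells and Nkg7-negative T cells, in CPM of the summed UMIs. Each point is 1 of the 5 libraries with at least 10 cells of each class. For Prf1, Klrb1a, Klri1 and Fcer1g the NK points lie above all points of the Nkg7+ T cells, and for Cd8a they lie below them.

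Genes outside the lists also separated NK cells from Nkg7+ T cells. Nrgn, a calmodulin-binding protein known from neurons, was at 304, 93.0, 108, 206 and 143 CPM in NK cells and at 25.1 and 3.07 CPM in the Nkg7+ T cells of sham 1 and mild 1, and at 0 in the other 3. Its fitted log2 fold change was 5.15 ± 0.56 (adjusted p = 0.000278). Plek (pleckstrin), a substrate of protein kinase C, was at 461, 316, 280, 674 and 567 CPM in NK cells and higher by 2.58 ± 0.29 (adjusted p = 0.000372). NK values of both genes lay above all values of the T cells. Prxl2b (4.73 ± 0.63), Scimp, an adaptor of immune cell membranes (2.64 ± 0.45), Srgap3 (2.53 ± 0.48) and Cd59, which blocks complement lysis (2.46 ± 0.42), completed the 10 largest rises together with Klri1, Gzma, Klrb1a and Gzmbl2.

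Ms4a4c and the T cell gene Cd8b had the largest falls in NK cells. Cd8b, the beta chain of the CD8 co-receptor, held 4 UMIs in the NK cells of the 5 libraries and was at 122 to 227 CPM in Nkg7+ T cells (log2 fold change −5.91 ± 0.52, adjusted p = 6.02e-05). Cd8a was not absent from NK cells. It was at 319, 130, 301, 230 and 220 CPM in NK cells against 519, 955, 581, 708 and 1115 CPM (−1.70 ± 0.30, adjusted p = 0.00853), and after thinning it was found in 31.9% of NK cells and 62.0% of Nkg7+ T cells. The classes did not overlap for Cd8a. Ms4a4c held 2 UMIs in NK cells against 170, a ratio of 0.00833 (exact 95% counting interval 0.00100 to 0.0306). Gimap4, a GTPase of lymphocytes (−3.60 ± 0.42), Camk4 (−3.55 ± 0.49), Lime1 (−2.18 ± 0.27) and Dgka (−1.98 ± 0.40), the last 3 known from T cell receptor signalling, were lower too, as was the adhesion molecule Cd2 (−1.03 ± 0.19). Rgs10 (−2.69, adjusted p = 0.0408) and Sh3kbp1 (−2.38, adjusted p = 0.0458) were lower near the threshold, and their calls were lost in 5 and 6 of 13 other settings.

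Of 5 tested cytokine and chemokine genes, 1 was called, and it was lower in NK cells. Ccl4 was lower in NK cells (−0.93 ± 0.22, adjusted p = 0.0483), at 501 to 3466 CPM against 637 to 6395 CPM. Ccl5 was the most abundant of the chemokine list in NK cells, at 30693, 9781, 12638, 14519 and 13678 CPM against 13663, 10081, 11032, 8162 and 12243 CPM, and did not pass the test (0.41, adjusted p = 0.30). In mild 1 Ccl5 was lower in NK cells than in Nkg7+ T cells, and in the other 4 libraries it was higher. Xcl1, which attracts cross-presenting dendritic cells, was at 54.8 CPM in sham 1 against 126 and at 539 to 727 CPM in the other 4 libraries against 70.8 to 113 (2.12 ± 0.54, adjusted p = 0.064). Ifng, the cytokine best known from NK cells, had 13 UMIs in 11 of the 352 cells, and Tnf, Il2 and Il10 had none.

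Of the remaining lists, 1 of 4 transcription factors (Id2, 1.34 ± 0.32), 1 of 4 cytokine receptors (Il2rb), 1 of 10 trafficking genes (Cd2, lower) and 1 of 11 stress genes (Jun, 1.09 ± 0.19) were called. None of 3 proliferation genes, 2 interferon genes and 5 autophagy factors named by the study passed. Of 3 tested antigen presentation genes, Cd74 (−1.62) and RT1-Db1 (−1.90) were lower. The Nkg7+ T cells also held more macrophage RNA in some libraries, and none of 6 tested macrophage genes passed (median −1.25). The part of other cells' RNA in the 2 calls was not tested.

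**Figure D4:**
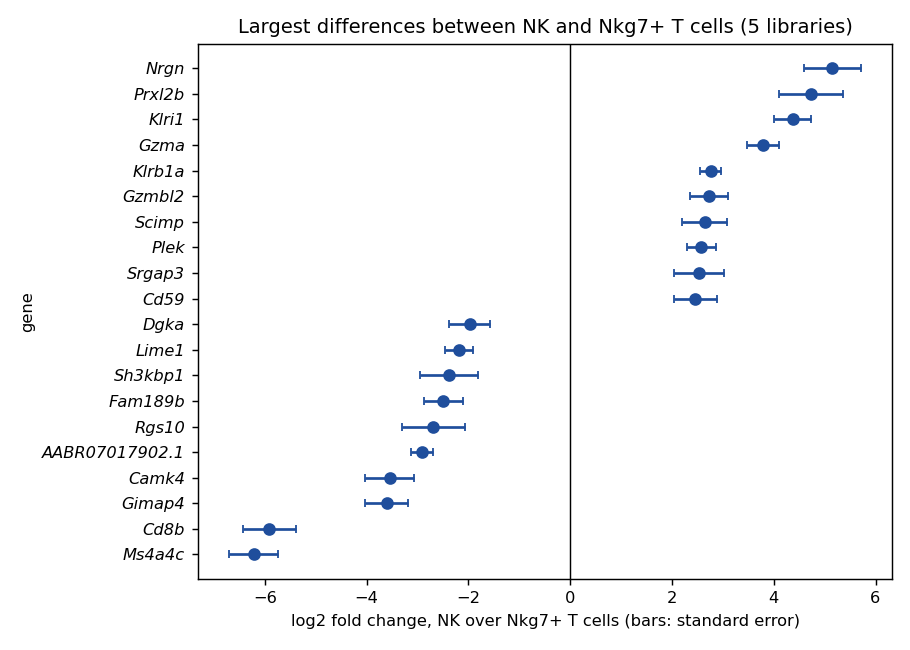
Fitted log2 fold changes of 20 genes, the 10 largest in each direction, in NK cells against Nkg7+ T cells, from edgeR over 5 libraries. Points are estimates and bars standard errors; points right of 0 are higher in NK cells, led by Nrgn at 5.15, and those left of 0 are lower, led by Ms4a4c at −6.22 and Cd8b at −5.91.

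Against Nkg7-negative T cells, genes called higher in NK cells included receptors, granule genes and the chemokines Xcl1, Ccl4 and Ccl5. Of 5408 genes tested, 220 had an adjusted p under 0.05 (4.07%), 125 higher (2.31%) and 95 lower (1.76%). Of 14 tested NK receptors 11 were higher, but members such as Ncr1 and Klrg1, with 0 and 1 UMI in these T cells, passed the filter through NK cells alone. Also higher were 7 of 11 granule genes, 3 of 5 chemokines (Xcl1, Ccl4 and Ccl5), 5 of 13 transcription factors and 4 of 10 cytokine receptors. Of 14 T cell genes, 7 were lower (Cd8b, Cd5, Cd28, Bcl11b, Lef1, Icos and Cd40lg).

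Several NK genes were almost absent from these T cells. Gzma had 2 UMIs there against 1663 in NK cells of the same libraries, a ratio of 3322 (exact 95% counting interval 918 to 27456). The inhibitory receptor Klrg1 had 1 UMI against 224 (ratio 895, 159 to 35506). Ncr1 had none against 135, so it was at least 179.8-fold higher in NK cells with a floor of 3 UMIs over the class. Prf1 was at 24.7 to 52.4 CPM in these T cells (log2 fold change 4.17 ± 0.25, adjusted p = 2.09e-06). Gzmm (6.19 ± 0.44), Gzmk (8.21 ± 0.70) and Ccl5 (7.61 ± 0.87) were at 0 to 304 CPM in them. The receptor genes Klrc3 (5.69 ± 0.60), Klri2 (5.65 ± 0.63), Ly49s5 (5.20 ± 0.72) and Ly49s6 (4.85 ± 0.54) were higher in all 5 libraries, although reads of the Ly49 family can be split between near-identical copies.

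Tbx21 (T-bet), a factor that drives the type 1 programme, was at 141, 55.8, 194, 151 and 99.1 CPM in NK cells and at 1.02 to 11.6 CPM in Nkg7-negative T cells (log2 fold change 4.30 ± 0.49, adjusted p = 0.000232), with no overlap. Its relative Eomes had 10 UMIs in all NK cells. Id2 (2.20), Ikzf3 (1.80), Rora (2.38) and Bhlhe40 (2.03) were the other factors called. Among cytokine receptors Il2rb (3.17 ± 0.41), Il12rb2 (4.19 ± 0.57), Il18rap (3.30 ± 0.35) and Ifngr1 (1.25 ± 0.25) were higher and Il21r (−3.14 ± 0.62) was lower. The integrin Itgam was higher (3.44 ± 0.50) and the egress receptor S1pr1 lower (−1.90 ± 0.43).

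The adaptor Tyrobp was not called against Nkg7-negative T cells. It was at 2305, 3570, 2411, 3253 and 3451 CPM in NK cells and at 381, 4751, 3293, 4263 and 3375 CPM in Nkg7-negative T cells, so that it was higher in NK cells of sham 1 and severe 2 and lower in the other 3 (0.17, adjusted p = 0.95). Macrophage genes summed to 1367, 17163, 27146, 877 and 14181 CPM in those T cells and to 913, 15619, 5576, 468 and 1106 CPM in NK cells. The most abundant macrophage gene in NK cells was Apoe in the injured libraries, with Tmem119, P2ry12 and Adgre1 at 0 in those 4. Lyz2 (−1.71), the B cell genes Ighm (−3.89) and Blnk (−4.11) and the antigen presentation genes Cd74 and RT1-Da were called lower in NK cells in the same comparison. Lyz2, Ighm, Cd74 and RT1-Da are themselves members of the lists of those other cells. The part of other cells' RNA in these calls was not tested. Cd40lg, the T cell help ligand, had no UMI in NK cells against 423 in T cells, so it was at least 35.3-fold lower.

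Within NK cells, each injured group was then compared with sham to ask what contusion changes at 7 days. All 3 comparisons share sham 1 as the control, with 1 library each of mild and moderate and 2 of severe, so the spread came from the severe pair alone and was assumed to hold for the other groups. Genes near 0 in the injured libraries passed the filter on low counts through sham 1, and the reverse, so counts over a list are again a description. Of 3003 genes tested, 177 were called in the mild group (5.89%; 71 higher, 2.36%, and 106 lower, 3.53%), 65 in the moderate group (2.16%; 23 higher, 0.766%, and 42 lower, 1.4%) and 308 in the severe group (10.3%; 129 higher, 4.3%, and 179 lower, 5.96%). With scaling by library size alone the split turned to 103 higher and 74 lower in the mild and 47 higher and 36 lower in the moderate group.

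The receptors and adaptors that marked NK cells off from T cells were mostly not called between injured and sham libraries. Of 10 tested NK receptors, 1 was lower after mild contusion (Klri2, with 2 UMIs in mild 1 against 266 in sham 1, ratio 0.151, exact 95% counting interval 0.0181 to 0.549) and none was called in the moderate and severe groups. None of 5 adaptors was called in any group. On simulated data the fit of severe against sham missed most changes, so a gene that was not called may still have changed. Prf1 had log2 fold changes of −0.72 (adjusted p = 0.61), −0.30 (0.92) and −0.75 (0.47) after mild, moderate and severe contusion. With this few libraries a change of Prf1 of this size was not detectable.

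Ctsw, Xcl1 and Ccl5 were called in all 3 comparisons. Ctsw (cathepsin W), a protease of cytotoxic lymphocytes, was at 71.5 CPM in sham 1, 1785 in mild 1, 710 in moderate 1, 1357 in severe 1 and 1679 in severe 2. All 4 injured libraries lay above sham 1, by log2 fold changes of 4.20 ± 0.66 (mild), 2.92 ± 0.65 (moderate) and 4.33 ± 0.63 (severe). The Nkg7+ T cells of sham 1 had 771 CPM of Ctsw, the lowest of a range of 771 to 1767 over the 5 libraries. The Nkg7-negative T cells of sham 1 were lowest too, with 88.9 CPM against 196 to 288. After thinning, Ctsw was found in 4.78% of 251 NK cells of sham 1, and in 80.0% of 15, 35.3% of 17, 52.2% of 23 and 69.2% of 26 NK cells of mild 1, moderate 1, severe 1 and severe 2.

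Xcl1 was at 54.8 CPM in sham 1 and at 539, 667, 563 and 727 CPM in mild 1, moderate 1, severe 1 and severe 2. It was higher by 2.85 ± 0.73, 3.21 ± 0.74 and 3.48 ± 0.68 (log2) after mild, moderate and severe contusion, and the 4 injured values lay close together. Moderate 2, left out with 8 NK cells, was at 1760.1 CPM, with 32 of its 53 UMIs in 1 cell, and with libraries of at least 5 NK cells the moderate fold change was 4.02. In Nkg7-negative T cells Xcl1 was at 0 in sham 1 and at 33.0 to 341 CPM in the other 4, while in Nkg7+ T cells sham 1 was the highest. Over all kept cells 375 of the 2358 Xcl1 UMIs lay in NK cells (15.9%) and 1333 lay outside NK and T cells. The part of other cells' RNA in the rise of Xcl1 was not tested. Ccl5 went the other way, from 30693 CPM in sham 1 to 9781, 12638, 14519 and 13678 CPM, with log2 fold changes of −2.09 ± 0.35, −1.67 ± 0.35 and −1.19 ± 0.28. It stayed abundant in every library and was found in 92.3% to 100% of thinned NK cells. The calls of Ctsw, Xcl1 and Ccl5 in the mild and severe groups were lost when moderate 1 was left out, although their folds were then 4.15 and 4.35, 2.81 and 3.50, and −2.13 and −1.17. With libraries of at least 5 NK cells the moderate call of Ctsw (edgeR adjusted p = 0.0803) and the mild call of Xcl1 (0.0578) were lost, as were the moderate call of Xcl1 with C1q at 0 (0.0553) and the severe call of Ccl5 with no filter (0.0981).

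**Figure D5:**
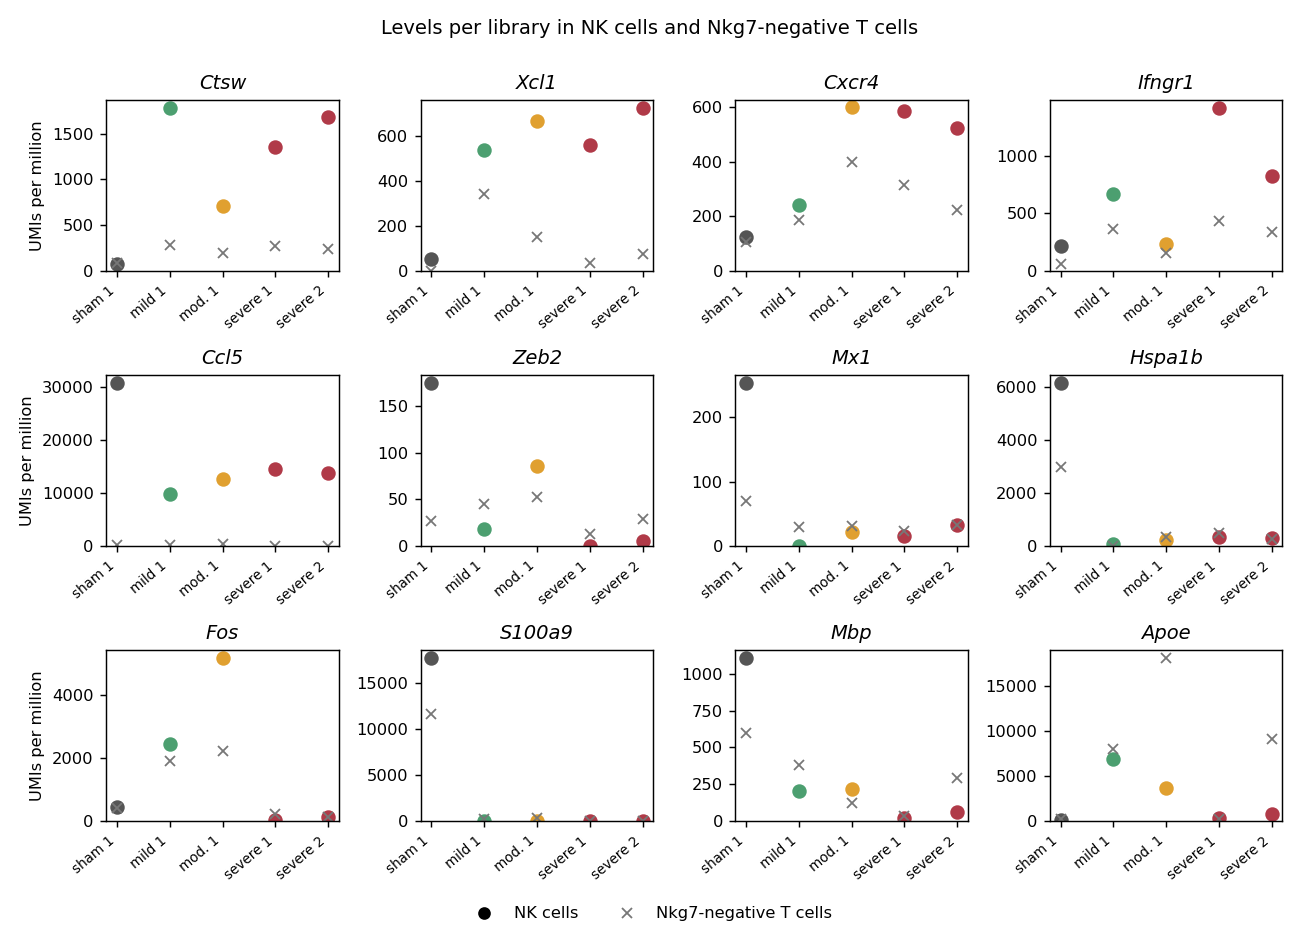
Level of 12 genes in NK cells (filled points) and Nkg7-negative T cells (crosses) of each of the 5 libraries with at least 10 NK cells, in CPM of the summed UMIs, on a linear axis of its own for each gene. In NK cells Ctsw and Xcl1 were lowest in sham 1 (71.5 and 54.8 CPM), and Ccl5, Zeb2, Mx1, Hspa1b, S100a9 and Mbp were highest there.

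Tgfb1, Ifngr1, Cxcr3 and Cxcr4 were among the genes called higher in the severe group. Tgfb1, a cytokine that restrains lymphocytes, was at 74.3 CPM in sham 1 and at 1476 and 661 CPM in severe 1 and severe 2, with 390 in mild 1 and 108 in moderate 1 (severe against sham 3.77 ± 0.69, adjusted p = 2.57e-05). Sham 1 was also the lowest library for Tgfb1 in Nkg7+ T cells (92.2 CPM, against 199 to 436) and in Nkg7-negative T cells (53.7 CPM, against 186 to 446). Ifngr1, a chain of the interferon-gamma receptor, was at 215 CPM in sham 1 and at 1420 and 826 CPM in the severe libraries (2.32 ± 0.61, adjusted p = 0.00512). Both severe values were above sham 1 for each gene, and for Tgfb1 also above mild 1 and moderate 1. Moderate 2 was at 631 CPM of Tgfb1 (19 UMIs over its 8 NK cells), near severe 2. The chemokine receptors Cxcr3 (3.89) and Cxcr4 (2.10 ± 0.63, adjusted p = 0.0184) were higher. Cxcr4, which is also among the autophagy factors named by the study, was at 124 CPM in sham 1, 242 in mild 1, 603 in moderate 1, 587 in severe 1 and 523 in severe 2. Ccl4 was higher by 1.94 in the severe and 2.40 in the moderate group, with 157 of the 343 UMIs of severe 2 and 55 of the 161 of moderate 1 in 1 cell each. For Ccl4, too, sham 1 was the lowest library in Nkg7+ T cells (637 CPM, against 2563 to 6395). The same held in Nkg7-negative T cells (48.1 CPM, against 65.9 to 662). The calls of Cxcr4 and Ifngr1 were lost with DESeq2 (adjusted p = 0.313 and 0.0613), without moderate 1 in edgeR (0.156 and 0.175) and with libraries of at least 5 NK cells (0.0999 and 0.0605). Without moderate 1, 3 of the 308 severe calls were left.

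Gpr183, a receptor that guides lymphocytes along oxysterols, had 2 UMIs in NK cells of sham 1 against 71 in the severe libraries (ratio 124, exact 95% counting interval 33.1 to 1046), and 6 in moderate 1. S100a4 (4.67 ± 0.72), Cd83 (4.87 ± 0.99), Traf4 (4.80 ± 1.00) and Chrne (4.55 ± 0.73) were among the 10 largest rises of the severe group. S100a4 was at 30.6 CPM in sham 1, 1543 in mild 1, 64.6 in moderate 1, 952 in severe 1 and 710 in severe 2, so that moderate 1 lay near sham 1 and not near the other injured libraries.

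Zeb2, a factor of mature NK cells, went down in the same comparison, from 174.6 CPM in sham 1 to 0 and 5.50 CPM in severe 1 and severe 2 (1 UMI against 188, ratio 0.0186, exact 95% counting interval 0.000469 to 0.105, adjusted p = 1.83e-05). It was at 18.6 CPM in mild 1 (1 UMI) and 86.1 in moderate 1, where all 4 UMIs came from 1 cell. Over all kept cells 201 of its 65078 UMIs lay in NK cells, and the part of other cells' RNA in its fall was not tested. S1pr5, the egress receptor of NK cells, fell by 3.13 on the log2 scale, from 112 CPM to 15.9 and 11.0 CPM (adjusted p = 0.0155). S1pr5 is also strongly expressed by oligodendrocytes, and 128 of its 23907 UMIs over all kept cells lay in NK cells (0.535%).

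Genes of the interferon response list were called lower in the mild and severe comparisons; whether the groups differ from each other was not tested. They were Isg15, Ifit3, Mx1, Oas1a and Bst2 in the mild group and Isg15, Ifit3, Mx1, Mx2 and Oas1a in the severe group, and none was called after moderate contusion. Of the list, 7 genes passed the filter with sham 1 in the fit and 2 in the fit of injured libraries alone, so the number of falls is no support for a direction. Mx1, an antiviral GTPase, was at 254 CPM in sham 1, 0 in mild 1, 21.5 in moderate 1, 15.9 in severe 1 and 33.0 in severe 2. Isg15, a ubiquitin-like protein, was at 235, 0, 129, 7.93 and 60.5 CPM in the same order. Sham 1 was above all 4 injured libraries for both genes. Mx1 was at least 4.54-fold lower in mild 1, and Ifit3, which had no UMI in the severe libraries, at least 14.5-fold lower there. The depth of mild 1, with 53780 NK UMIs, sets the bound for that library.

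Stress and early response genes were called in both directions. Hspa1b, a heat shock protein induced by handling and heat, was at 6151 CPM in NK cells of sham 1 and at 55.8, 237, 349 and 286 CPM in mild 1, moderate 1, severe 1 and severe 2. In Nkg7-negative T cells it was at 2988, 13.9, 341, 475 and 244 CPM. Sham 1 was the highest in both cell classes. Fos was at 432 CPM in sham 1, 2436 in mild 1, 5189 in moderate 1, 47.6 in severe 1 and 132 in severe 2, and at 421, 1912, 2216, 239 and 139 CPM in those T cells. Of 11 tested genes of this list, 3 were higher and 1 lower after mild and after moderate contusion, and 3 higher and 4 lower after severe contusion.

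Many of the genes called against sham are known from other cells. S100a9, a neutrophil gene, was at 17700 CPM in NK cells of sham 1, with UMIs in 258 of 258 cells, and at 18.6 CPM in mild 1 and 0 in moderate 1, severe 1 and severe 2. Mbp, a protein of the myelin sheath, was at 1108 CPM in sham 1, where 345 of its 1193 UMIs came from 1 cell, and at 205 CPM in mild 1, 215 in moderate 1, 23.8 in severe 1 and 60.5 in severe 2. Sham 1 was above all 4 injured libraries for both genes. The neutrophil list summed to 24932 CPM in the NK cells of sham 1, beside 16500 CPM in its Nkg7-negative T cells and 57035 CPM over its kept cells, with 1 of 10 genes (Ltf) at 0. It summed to 55.8, 21.5, 23.8 and 11.0 CPM in NK cells of mild 1, moderate 1, severe 1 and severe 2, with 8 or 9 of 10 genes at 0.

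The oligodendrocyte list summed to 9290 CPM in the NK cells of sham 1, with 1 of 8 genes (Pdgfra) at 0, against 23.8 to 560 CPM in the other 4 libraries. In the fit of injured libraries alone, 1 gene of this list and 0 of the neutrophil list passed the filter on low counts, so the number of their falls against sham is not given. Mog, Klk6 and S100a9 were among the 10 largest falls of each of the 3 comparisons. RNA of other cells in sham 1 and the sham condition cannot be told apart here.

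Macrophage transcripts moved the other way in mild 1 and moderate 1. The macrophage list summed to 913 CPM in NK cells of sham 1, 15619 in mild 1, 5576 in moderate 1, 468 in severe 1 and 1106 in severe 2. Its most abundant gene Apoe was at 101, 6898, 3703, 301 and 782 CPM. In mild 1, 257 of the 371 Apoe UMIs and 116 of the 204 Spp1 UMIs came from 1 cell, and the 2 NK cells of that library with over 3 times its median UMI count held 47.8% of its NK UMIs. Macrophage genes were called higher for 5 of 7 in the mild group (Apoe, Spp1, Ctsb, Cd68 and Cd14), 2 of 7 in moderate and 1 of 7 in severe (Apoe), where Lyz2 was lower. Fabp4, Gpnmb, Apoc1, Col1a1 and Col3a1, among the 10 largest rises of the mild group, are known from macrophages and fibroblasts. Fabp4 had no UMI in sham 1 and was at least 153.5-fold higher in mild 1. The part of these cells in the mild and moderate calls was not tested; mild calls numbered 83 without cells of over 3 times the median UMI count.

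The dendritic cell list, made up here of antigen presentation genes, was called higher for 4 of 4 tested genes in the severe group (Cd74, RT1-Da, RT1-Db1 and RT1-Ba). Most of this RNA came from 1 cell. In severe 1, 154 of 159 Cd74 UMIs, 65 of 66 RT1-Da UMIs, 35 of 44 RT1-Db1 UMIs and 36 of 40 RT1-Ba UMIs came from a single NK cell, while the defining dendritic genes Flt3, Clec9a, Xcr1 and Siglech were at 0 in all 5 libraries. Similarly, the mild call of Gzma (−3.27, adjusted p = 0.00157) set 10 UMIs of 1 cell against sham 1. B cell genes were at 0 to 18.6 CPM and all 6 measured mast cell genes at 0 in the NK cells of these libraries.

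A trend over drop height was fitted in the 4 injured libraries with at least 10 NK cells, which leaves the sham libraries out. Of 1949 genes tested, 52 were called (2.67%), 17 with a rise (0.872%) and 35 with a fall (1.8%). None of 6 tested NK receptors, 4 adaptors, 10 granule genes, 5 chemokines and cytokines, 8 transcription factors, 3 cytokine receptors and 11 trafficking genes was called, which in 4 libraries does not show that they did not change. Gzmm had a slope of 0.50 ± 0.21 per doubling of height (adjusted p = 0.32) and Prf1 of −0.15 ± 0.32 (adjusted p = 0.86).

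The calls of the trend were other genes. The macrophage list fell for 6 of 7 genes, with Spp1 at 3793, 1012, 55.5 and 88.1 CPM in mild 1, moderate 1, severe 1 and severe 2 (slope −2.78 ± 0.36, adjusted p = 0.00498). The matrix genes Col3a1 (−4.41 ± 0.44), Col1a1 (−4.10 ± 0.45), Bgn and Lum fell as well. With the 3 NK cells of over 3 times the median UMI count in mild 1 and moderate 1, and 1 in severe 2, left out, 10 calls were left in all and none of them was a fall.

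Rps19 and Rps6, of the small ribosomal subunit, were among the 10 largest rises. Rps19 was at 55.8, 129, 2864 and 2125 CPM in mild 1, moderate 1, severe 1 and severe 2 (slope 3.21 ± 0.45, adjusted p = 0.00763), and Rps6 at 37.2, 64.6, 555 and 837 CPM (2.55 ± 0.47). Both severe libraries were far above the other injured libraries. Rps19 had the same order in Nkg7-negative T cells, at 43.1, 145, 2411 and 2265 CPM, so that its level moved with the library in both cell classes. Stmn1, a tubulin-binding protein of dividing cells, was at 55.8, 517, 928 and 1145 CPM (1.90 ± 0.42, adjusted p = 0.0489), and Cks2, a partner of cyclin-dependent kinases, at 112, 258, 873 and 804 CPM (1.61 ± 0.35, adjusted p = 0.0423). Of 12 other settings, 7 called Stmn1 (edgeR or DESeq2 adjusted p up to 0.47) and 5 called Cks2 (up to 0.55), and 2 trend calls in all were left without doublets and 0 without moderate 1. Stmn1 was the only call among 4 tested proliferation genes, and in Nkg7-negative T cells it was at 325, 252, 199 and 274 CPM. Mki67, which marks cycling cells, was found after thinning in 2 of 251 NK cells of sham 1, 0 of 15 of mild 1, 1 of 17 of moderate 1, 3 of 23 of severe 1 and 2 of 26 of severe 2, and in 11.7% of macrophages. These counts are too small to order the libraries.

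The autophagy factors named by the study were measured in NK cells as levels. Hspa8, a chaperone of chaperone-mediated autophagy, was the most abundant of the 8 in 4 of the 5 libraries (Ctsb was in mild 1), at 1282 CPM in sham 1, 744 in mild 1, 947 in moderate 1, 3483 in severe 1 and 2284 in severe 2. Hspa5, a chaperone of the endoplasmic reticulum, was at 267, 595, 775, 841 and 545 CPM, and Hdac1, a histone deacetylase, at 84.5, 130, 151, 198 and 220 CPM. Neither Hspa5 nor Hdac1 was called in a comparison with sham. Ctsb, a lysosomal protease, was at 109, 2771, 431, 55.5 and 105 CPM, and 88 of its 149 UMIs in mild 1 came from 1 cell. Birc5, Vegfa and Eif2ak2 were at 0 in mild 1 and at 86.1 to 151 CPM at most in the other libraries. Of the 8 factors, Ctsb was called higher in the mild group and Cxcr4 in the severe group, none in the moderate group, and Ctsb fell with drop height.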

How the data were processed

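Per the labels and file headers, the authors mapped 10x Genomics 3′ V3 libraries to Rnor_6.0 with Cell Ranger (5.0.1 in the matrix header, while the study's methods name a later version), and the deposited values are raw UMI counts of 32623 genes per cell, without normalization. The 68658 deposited cells were reduced to 63769 with at least 500 UMIs and at most 10% mitochondrial UMIs, and NK and T cells were gated on raw counts. Doublets were not removed. An alternative without the 7.7% of cells with the highest Scrublet score (scanpy 1.11.5) removed 25 NK cells.

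UMI counts were summed per library and class with at least 10 cells and tested with edgeR 4.0.16 (R 4.3.3; TMM, filterByExpr, quasi-likelihood test, Benjamini-Hochberg adjustment over all genes tested, threshold 0.05). CPM are counts per 1e6 UMIs of the summed cells. The trend is a slope per doubling of drop height. Alternatives were DESeq2 1.42.0, library size only, no filter, other gates, the replicate block and leaving out each library. Shares were compared with exact permutation tests (scipy 1.17.1), and cells of unequal depth were compared by thinning to 1000 UMIs. The edgeR fits and the permutation test were checked on simulated data, where the fit of severe against sham recovered a smaller part of the changed genes than the fits against Nkg7+ T cells and over drop height.

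Genes named beside the lists are the 10 largest rises and the 10 largest falls of each comparison with an adjusted p under 0.05 and at least 50 CPM in the higher class or group, leaving out genes of the gate. Genes of the lists could be named throughout. The members, lists and tests were chosen with earlier results of these data known. Intervals and floors (3 UMIs) cover counting error only. Some genes are not reported here.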

Additional observations from a re-analysis of the deposited data

How the results depend on the processing

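Among the named genes followed through the other settings none changed direction. Of their values, 439 of the Nkg7+ T cell comparison kept their side of the threshold, 53 lost and 8 gained a call. The counts were 605 kept and 67 lost against Nkg7-negative T cells, 165 and 108 for mild, 191 and 37 for moderate, 514 and 106 (1 gained) for severe against sham and 176 and 81 in the trend. Against Nkg7+ T cells, 58 calls became 157 with no filter, 167 with at least 20 cells, 91 without doublets, 138 without cells of over 3 times the median UMI count (chosen after seeing the data, as below), 27 without the library block, and 29 to 66 with 1 library left out (29 without severe 2, all shared with the 58). Against Nkg7-negative T cells, 220 became 691 with no filter, 334 without doublets, 355 without cells of over 3 times the median, 116 without the library block, and 111 (without severe 1) to 317 with 1 library left out.

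The sham comparisons and the trend were fragile. DESeq2 gave 39 mild, 19 moderate and 49 severe calls instead of 177, 65 and 308, and its own filter gave no adjusted p to 112, 37 and 175 of those. Mild calls were 62 without doublets, 83 without cells of over 3 times the median and 84 with libraries of at least 5 NK cells (added). Moderate calls were 27 with C1q at 0 and 34 without cells of over 3 times the median, and severe calls 162 with at least 5 cells. Without moderate 1, the mild group had 0 calls (391 at an unadjusted p under 0.05 in edgeR) and the severe group 3, and 325 without mild 1. In the mild group no other library could be left out. Trend calls, 52, were 136 with no filter, 2 without doublets, 27 with C1q at 0, 10 without cells of over 3 times the median, and 0 (without moderate 1; 249 at an unadjusted p under 0.05) to 79 (without mild 1) with 1 library left out. The replicate numbers are shared but nothing pairs them. Only the severe group has 2 libraries with at least 10 NK cells, so no correlation of pairs could be computed at that limit. The replicate block gave 80 trend calls. Scaling by library size alone moved the median log2 fold change of all genes from −0.17 to 0.25 for mild and from −0.13 to 0.25 for moderate against sham, where the calls then split into 103 higher and 74 lower and 47 higher and 36 lower. The causes were not tested.

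The rho of the NK share of kept cells ran from 0.13 to 0.84 (without sham 1) with 1 library left out. That of the share among NK and T cells ran from −0.26 to 0.60 (without sham 1), and changed sign with Klrd1 of at least 2 UMIs (0.13), thinned gates (0.0551), T cells from 1 Cd3 UMI (0.13), injured libraries alone (0.60) and without the 2 libraries farthest from the median height (0.63). Fits with at least 20 cells for the mild, moderate and trend comparisons, with C1q at 0 for the mild group, with the replicate block or without sham 1, severe 1 or severe 2 for the sham comparisons could not be fitted.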
